A study of Mus musculus with 6 samples.

Results

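The let-7 passenger arms are the 3p arms of the let-7 hairpins, and 10 of them are listed by name among the 1506 miRNAs of a small RNA sequencing table of mouse oligodendrocyte progenitor cells (OPCs). They are let-7a-1-3p, let-7b-3p, let-7c-2-3p, let-7d-3p, let-7e-3p, let-7f-1-3p, let-7f-2-3p, let-7g-3p, let-7i-3p and miR-98-3p. They were taken by a rule on names that does not use their levels. Earlier results of these data were known when they and the lists compared below were chosen. All 10 reached 1 TPM in 3 or more libraries, the filter on low values, and so were among the 607 miRNAs tested. The samples were 3 libraries of OPCs treated with fibrinogen, at 2.5 mg/mL, and 3 labelled as control, called untreated here. All 6 were of wild-type C57BL/6 mice, with the OPCs cultured from the cortex of newborn pups, and the study asked how fibrinogen, a clotting protein that enters the brain when its vessels leak, alters miRNAs of OPCs. The time in fibrinogen and the number of pups in a culture were not given in the sources used here. The headers of the table number the libraries of each group by mouse, from 1 to 3. Whether a culture held cells of 1 mouse, and whether the same number in both groups means the same mouse, was not given there, so p-values measure the spread between these libraries.

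A miRNA hairpin is cut by Drosha and Dicer into a duplex of a 5p and a 3p arm. One strand, the guide, is loaded into an Argonaute protein and pairs with mRNAs mainly through its seed, bases 2 to 8, and the other, the passenger, is mostly degraded. In the let-7 family the 5p arm is the guide. It is known for marking the change of progenitors to differentiating cells, and LIN28 blocks the processing of many let-7 hairpins in immature cells. For let-7a, let-7c and let-7f several hairpins give the same 5p sequence, so these 5p levels cannot be traced to a hairpin. The 3p arms differ more between hairpins.

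The 3p sequences are shown because they decide which hairpins can be told apart. All 10 were matched by name in the RefSeq miRNA table (GRCm38.p6). They are written 5′ to 3′ with the seed in capitals.
let-7a-1-3p: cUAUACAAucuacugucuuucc
let-7c-2-3p: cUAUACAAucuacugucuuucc
let-7b-3p: cUAUACAAccuacugccuuccc
let-7f-1-3p: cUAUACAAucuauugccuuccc
miR-98-3p: cUAUACAAcuuacuacuuuccu
let-7f-2-3p: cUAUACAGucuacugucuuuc
let-7d-3p: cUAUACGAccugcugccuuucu
let-7e-3p: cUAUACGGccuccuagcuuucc
let-7g-3p: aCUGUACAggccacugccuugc
let-7i-3p: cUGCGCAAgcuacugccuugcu

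The sequences of let-7a-1-3p and let-7c-2-3p had 0 differences over 22 bases, and their TPM values were the same in all 6 libraries. Their hairpins differ outside the 3p arm, and a read of the arm itself cannot say which of them it came from. The files do not state whether each row lists all of these reads or a part of them. Each row held whole reads in all 6 libraries, which an even split gives only where the total is even. The pair is therefore counted below as 1 sequence, written let-7a-1/c-2-3p, with the values of 1 row, which leaves 9 distinct sequences. If each row held only a part of the reads, its level and the sums that include it would be higher, and its place in the order could change. The closest other pair was let-7a-1/c-2-3p and let-7f-2-3p, with 1 difference over 21 bases.

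The 10 arms carried 6 different seeds. The seed UAUACAA was shared by let-7a-1/c-2-3p, let-7b-3p, let-7f-1-3p and miR-98-3p, and the other 5 arms each had a seed of their own. Among 1674 distinct mature sequences of the RefSeq table, none outside these arms had any of the 6 seeds. A first base of C was found in 9 of the 10 arms, against 184 of 709 3p arms (26.0%). Of the 9 partner 5p arms, all had the seed GAGGUAG and 8 began with U. The 3p arms are thus a more varied set of sequences than their partners.

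Hairpins are shown for the arms on which the results below turn, with the 3p arm in capitals. They are RefSeq entries of GRCm38.p6.
Mirlet7a-1, chr13:48538179-48538272, minus strand: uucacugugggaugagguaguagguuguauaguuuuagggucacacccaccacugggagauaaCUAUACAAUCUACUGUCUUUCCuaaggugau
Mirlet7c-2, chr15:85706603-85706697, plus strand: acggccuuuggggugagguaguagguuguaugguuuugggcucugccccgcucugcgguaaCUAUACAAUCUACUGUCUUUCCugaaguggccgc
Mirlet7d, chr13:48536012-48536114, minus strand: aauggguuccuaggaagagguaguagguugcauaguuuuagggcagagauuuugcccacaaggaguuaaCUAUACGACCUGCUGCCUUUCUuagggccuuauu
Mirlet7f-1, chr13:48537829-48537917, minus strand: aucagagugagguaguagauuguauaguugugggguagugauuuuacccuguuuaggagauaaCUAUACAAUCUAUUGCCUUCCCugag
Mirlet7e, chr17:17830352-17830444, plus strand: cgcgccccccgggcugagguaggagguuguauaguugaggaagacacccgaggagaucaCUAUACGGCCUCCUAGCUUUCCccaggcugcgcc

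The 10 hairpins lie at 6 places in the genome, described here with the GRCm39 annotation, whose hairpins held all 10 of the 3p sequences. Mirlet7a-1, Mirlet7f-1 and Mirlet7d stood in this order on the minus strand of chromosome 13, in an exon of the long noncoding RNA 6720427I07Rik, with gaps of 261 bases between Mirlet7a-1 and Mirlet7f-1 and 1714 bases between Mirlet7f-1 and Mirlet7d. Mirlet7c-2 and Mirlet7b lay 621 bases apart in exons of the long noncoding RNA Lncppara on chromosome 15. Mirlet7f-2 and Mir98 lay 785 bases apart in an intron of Huwe1, a ubiquitin ligase gene, on chromosome X. The others stood alone among the 10, Mirlet7e in an intron of Spaca6 on chromosome 17, Mirlet7g in an intron of Wdr82 on chromosome 9 and Mirlet7i in an exon of the long noncoding RNA Gm63655 on chromosome 10.

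TPM here means the reads of a miRNA scaled to a common library total, with no correction for length. The 9 distinct sequences are 21 or 22 bases long. Summed over all miRNAs listed, there were 12120909 to 13624613 reads in libraries of fibrinogen-treated OPCs and 11897645 to 14847034 reads in those of untreated OPCs. The TPM values of a library summed to 972508 to 1007870, so these sums are not the totals used for scaling. A single read was worth 0.0669 to 0.0841 TPM. Markers of 7 cell classes, the oligodendrocyte lineage among them, were present in all libraries, as 16 of 16 were above 0 in each. Markers of the oligodendrocyte lineage summed to 2625 to 4203 TPM in fibrinogen-treated and 3496 to 3682 TPM in untreated OPCs. The markers listed as neuronal summed to 325968 to 329650 TPM and 349768 to 371889 TPM. Markers of red blood cells summed to 121 to 138 TPM in fibrinogen-treated OPCs against 149 to 567 TPM in untreated OPCs, and those of mural cells to 2825 to 3866 TPM against 2179 to 2581 TPM. Members of the lists of the oligodendrocyte lineage and of microglia and leukocytes went different ways. The log2 fold changes were below 0 for markers of red blood cells (-1.13 and -1.73) and neurons (-0.035, -0.071 and -0.49). They were above 0 for those of mural cells (0.51 and 0.46) and epithelium (2.22 and 0.68). Of the oligodendrocyte list, miR-219a-2-3p averaged 571 ± 117 TPM in fibrinogen-treated and 306 ± 74.0 TPM in untreated OPCs (SD, n = 3 each), without overlap. Most of the neuronal sum was miR-9-5p, at 258396 ± 2887 and 271472 ± 7575 TPM. In the same list miR-128-3p was called lower, at 45234 ± 3576 and 63655 ± 5181 TPM (limma, adjusted p = 0.0410). The paper studies miR-128-3p as a miRNA of OPCs, so this sum does not measure neurons alone. The sums were 1142 to 1361 TPM against 1179 to 1841 TPM for microglia and leukocytes (without overlap, miR-150-5p was higher in fibrinogen-treated OPCs and miR-142a-3p lower), 8505 to 10441 TPM against 8231 to 10625 TPM for endothelium, and 23.9 to 99.9 TPM against 7.06 to 22.0 TPM for epithelium. The part of these cells in the levels below was not tested, and in such bulk samples fewer cells of a type and less RNA per cell cannot be told apart.

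The let-7 3p arms were low and far apart in level. The most abundant was let-7i-3p at 76.1 ± 11.4 TPM in fibrinogen-treated and 86.0 ± 14.4 TPM in untreated OPCs (SD, n = 3 each), and the least abundant was let-7f-1-3p at 0.873 ± 0.268 and 1.56 ± 0.260 TPM. Between them stood, in falling order of the mean over all 6 libraries, let-7a-1/c-2-3p, let-7d-3p, let-7e-3p, let-7g-3p, miR-98-3p, let-7f-2-3p and let-7b-3p. In fibrinogen-treated OPCs alone, let-7d-3p averaged 59.7 TPM and let-7a-1/c-2-3p 57.9 TPM. The ranges of let-7i-3p and let-7a-1/c-2-3p overlapped in both groups, as did those of let-7a-1/c-2-3p and let-7d-3p and those of let-7b-3p and let-7f-1-3p. The ranges of let-7g-3p and miR-98-3p overlapped in untreated OPCs and not in fibrinogen-treated OPCs. All other neighbours in the order were separate in both groups. Within libraries, let-7i-3p was above let-7a-1/c-2-3p in 6 of 6.

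**Figure D1:**
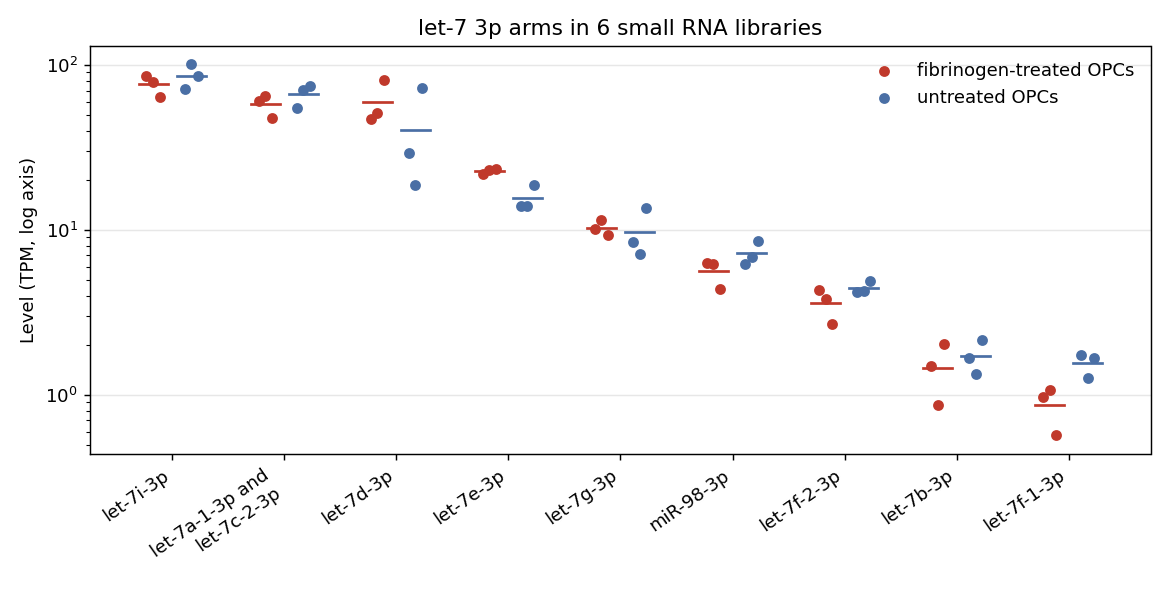
Level of each of the 9 distinct let-7 3p arms in each library, in TPM on a log axis, with fibrinogen-treated OPCs left of untreated OPCs and a bar at the mean of the 3 libraries of a group. The groups overlap for all arms but let-7e-3p, where the treated libraries are higher, and let-7f-1-3p, where they are lower, and the points of let-7d-3p are spread the most.

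None of the 10 arms differed between fibrinogen-treated and untreated OPCs at an adjusted p under 0.05 (limma, Benjamini-Hochberg over all 607 miRNAs), with adjusted p values of 0.134 to 0.789. Among all miRNAs tested, 17 passed (2.8%), of which 13 were higher and 4 lower. At an unadjusted p under 0.05, 2 of the 10 arms passed, let-7e-3p with higher and let-7f-1-3p with lower values in fibrinogen-treated OPCs, against 25.7% of all miRNAs (20.1% with higher and 5.6% with lower values). The count of arms called after adjustment was also 0 with the edgeR quasi-likelihood test, the edgeR exact test and DESeq2 on the recovered reads. Of all miRNAs, these tests called 8, 12 and 27 higher and 4, 10 and 37 lower. DESeq2 gave no adjusted p for let-7b-3p and let-7f-1-3p, which were left out of its count. At an unadjusted p under 0.05 the counts were 2 (let-7e-3p and let-7f-1-3p), 1 (let-7f-1-3p) and 1 (let-7e-3p). The shares of all miRNAs under this threshold in these tests were not counted, so these counts are a description only. The libraries of the groups did not overlap for let-7e-3p and let-7f-1-3p, 2 of the 10 arms, against 33.1% of all miRNAs (24.4% higher and 8.73% lower). Of these 2, let-7f-1-3p passed the filter of 1 TPM through the untreated libraries, where it was higher. Over the 9 distinct sequences the log2 fold change was above 0 for 3 and below 0 for 6, with a median of -0.17, beside a median of 0.13 over all miRNAs tested and 62.9% of them above 0. With median-of-ratios scaling the median over all miRNAs was 0.0031, and with that scaling and with TMM let-7g-3p moved to just below 0. Fold changes are on the log2(TPM + 1) scale, which understates those of low arms. An exact permutation test of 3 against 3 libraries cannot go below p = 0.1.

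The arm with the smallest p was let-7e-3p, from a hairpin that stands beside miR-99b and miR-125a. It had 21.7, 22.9 and 23.5 TPM in fibrinogen-treated OPCs, against 14.0, 14.0 and 18.6 TPM in untreated OPCs. All 3 treated libraries were above all 3 untreated libraries. The means were 22.7 ± 0.919 and 15.6 ± 2.63 TPM (SD, n = 3 each). The log2 fold change was 0.53 with a standard error of 0.17 (limma, p = 0.017, adjusted p = 0.134; exact permutation test, two-sided, p = 0.1). Its 95% interval ran from 0.13 to 0.93. The reads behind it were 291, 319 and 289 in fibrinogen-treated OPCs against 177, 167 and 278 in untreated OPCs. Over the alternatives tried its adjusted p lay between 0.0600 and 0.407, and with a correction for base composition its log2 fold change was 0.24.

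The arm with the widest spread was let-7d-3p, whose hairpin is the last of the cluster on chromosome 13. It had 46.7, 51.5 and 81.0 TPM in fibrinogen-treated OPCs, against 29.3, 18.8 and 72.3 TPM in untreated OPCs. In both groups library 3 was the highest, and untreated library 3 was above 2 of the 3 treated libraries. The means were 59.7 ± 18.6 and 40.1 ± 28.3 TPM (SD, n = 3 each). The log2 fold change was 0.74, with a standard error of 0.47 and a 95% interval of -0.37 to 1.85 (limma, adjusted p = 0.356; exact permutation test, two-sided, p = 0.4). Without untreated library 3 the log2 fold change was 1.27 (adjusted p = 0.0539), and without untreated library 2 it was 0.32 (adjusted p = 0.655). The reads were 626, 716 and 995 against 370, 224 and 1081, so the spread was far above counting error. The highest value was 1.73 times the lowest in fibrinogen-treated and 3.84 times in untreated OPCs. Of 139 known miRNAs with a mean of 20 to 200 TPM, a band set after the values had been seen and which includes let-7d-3p, 11 had as large a ratio among treated libraries and 6 among untreated libraries, with medians of 1.26 and 1.44.

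The arm with the most reads was let-7i-3p. It had 86.0, 78.8 and 63.7 TPM in fibrinogen-treated OPCs, against 72.0, 101 and 85.3 TPM in untreated OPCs. The groups overlapped, and the log2 fold change was -0.17 with a standard error of 0.18 and a 95% interval of -0.60 to 0.26 (limma, adjusted p = 0.572). With a correction for base composition it was -0.56 (adjusted p = 0.191), which is over 1.5 times the value without it. The pooled sequence let-7a-1/c-2-3p had 60.5, 65.1 and 47.9 TPM in fibrinogen-treated OPCs, against 55.1, 70.8 and 74.9 TPM in untreated OPCs. Its groups overlapped as well, with a log2 fold change of -0.21 and a 95% interval of -0.64 to 0.23 (adjusted p = 0.505). With TMM scaling the values were -0.36 for this sequence and -0.32 for let-7i-3p. Without fibrinogen-treated library 3 they were -0.079 and -0.049.

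For let-7g-3p, miR-98-3p, let-7f-2-3p and let-7b-3p the groups overlapped. Of these, let-7g-3p had 10.1, 11.4 and 9.36 TPM in fibrinogen-treated OPCs, against 8.39, 7.15 and 13.6 TPM in untreated OPCs, where library 3 stood highest. Its log2 fold change of 0.12, with a 95% interval of -0.47 to 0.70, was close to the median of all miRNAs and was -0.0040 with median-of-ratios scaling. The neighbours in Huwe1 had like patterns over the libraries. The arm miR-98-3p had 6.27, 6.18 and 4.40 TPM in fibrinogen-treated OPCs, against 6.18, 6.90 and 8.56 TPM in untreated OPCs, and let-7f-2-3p had 4.33, 3.81 and 2.69 TPM against 4.20, 4.29 and 4.88 TPM. Their log2 fold changes were -0.31 (95% interval -0.80 to 0.17) and -0.26 (95% interval -0.72 to 0.20), and without fibrinogen-treated library 3 they were -0.17 and -0.11. The arm let-7b-3p had 1.49, 0.863 and 2.04 TPM in fibrinogen-treated OPCs, against 1.66, 1.35 and 2.14 TPM in untreated OPCs. It rested on 12 to 25 reads a library against 16 to 32 reads, and its log2 fold change was -0.16 with a 95% interval of -0.70 to 0.39.

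The rarest arm, let-7f-1-3p, had 0.970, 1.08 and 0.570 TPM in fibrinogen-treated OPCs, against 1.74, 1.26 and 1.67 TPM in untreated OPCs. The treated libraries were all below the untreated libraries. The reads were 13, 15 and 7 against 22, 15 and 25. The log2 fold change was -0.46 with a standard error of 0.19 and a 95% interval of -0.89 to -0.018 (limma, p = 0.0432, adjusted p = 0.184; exact permutation test, two-sided, p = 0.1). It passed the filter of 1 TPM through all 3 untreated libraries and 1 treated library, so it was among the miRNAs tested through the untreated libraries. On the scale of the edgeR quasi-likelihood test, which adds no pseudocount of 1 TPM, the log2 fold change was -0.97 (adjusted p = 0.18). Summed over libraries, its level was 0.903 TPM (exact Poisson 95% interval 0.629 to 1.26) in fibrinogen-treated OPCs and 1.57 TPM (1.20 to 2.01) in untreated OPCs. These intervals overlap and cover counting error only.

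The summed level of the 9 distinct arms was 238, 242 and 235 TPM in fibrinogen-treated OPCs, against 193, 225 and 282 TPM in untreated OPCs. The treated libraries lay within the range of the untreated libraries. Within this sum, let-7e-3p took 9.54% ± 0.443 in fibrinogen-treated OPCs and 6.70% ± 0.531 in untreated OPCs (SD, n = 3 each), and the groups did not overlap. The shares of let-7f-1-3p were 0.242% to 0.446% against 0.560% to 0.905%, and those of miR-98-3p 1.87% to 2.63% against 3.04% to 3.21%, again without overlap. Each of these 3 differences had an exact permutation p = 0.1, two-sided, and an adjusted p = 0.3 over 9 shares. These were 3 of 9 shares, beside 33.1% of all miRNAs tested whose TPM values did not overlap. Among these 3, let-7f-1-3p passed the filter of 1 TPM through the untreated libraries. The other 6 shares overlapped, and so did the TPM values of miR-98-3p. The 4 sequences with the seed UAUACAA summed to 69.3, 73.2 and 54.9 TPM in fibrinogen-treated OPCs, against 64.7, 80.3 and 87.3 TPM in untreated OPCs, and the groups overlapped.

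The 5p partners, which are the guide strands, were far more abundant. The let-7 5p arms summed to 158287, 164023 and 176379 TPM in fibrinogen-treated OPCs, against 150925, 140072 and 139226 TPM in untreated OPCs, and the groups did not overlap. The 3p arms made up 0.133% to 0.150% of both arms in fibrinogen-treated and 0.127% to 0.202% in untreated OPCs. Of the 9 partners, 7 had all treated libraries above all untreated libraries, against 24.4% of all miRNAs, and 0 passed the adjusted test, against 2.14% called higher (limma; 3 passed at an unadjusted p under 0.05, against 20.1% of all miRNAs with higher values). The edgeR quasi-likelihood and exact tests and DESeq2, which called 8, 12 and 27 of all miRNAs higher, called none of them either. Among the 10 let-7 5p arms tested the median log2 fold change was 0.28 and the smallest adjusted p was 0.0836. It belonged to let-7i-5p, which averaged 11681 ± 625 TPM in fibrinogen-treated and 9360 ± 328 TPM in untreated OPCs (SD, n = 3 each; log2 fold change 0.32).

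The other partners are given by their log2 fold changes. These were 0.42 for let-7b-5p, 0.35 for let-7c-5p, 0.31 for let-7d-5p, 0.26 for let-7e-5p, 0.19 for let-7a-5p and 0.12 for let-7f-5p, with adjusted p values of 0.0963 to 0.330. These values moved down with the scaling: with median-of-ratios and TMM they were 0.19 and 0.16 for let-7i-5p (adjusted p = 0.295 and 0.315), 0.28 and 0.26 for let-7b-5p, 0.21 and 0.19 for let-7c-5p, 0.17 and 0.15 for let-7d-5p, 0.12 and 0.10 for let-7e-5p, 0.059 and 0.038 for let-7a-5p and just below 0 for let-7f-5p. With the correction for base composition they rose to 0.31 for let-7f-5p and 0.29 for let-7a-5p and fell to 0.32 for let-7b-5p. The corrected values of let-7i-5p (0.32), let-7c-5p (0.34), let-7d-5p (0.30) and let-7e-5p (0.26) were close to those without it, and all 9 partners were above 0. The groups overlapped for let-7g-5p at -0.0011 and for miR-98-5p at -0.0060 without this correction.

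**Figure D2:**
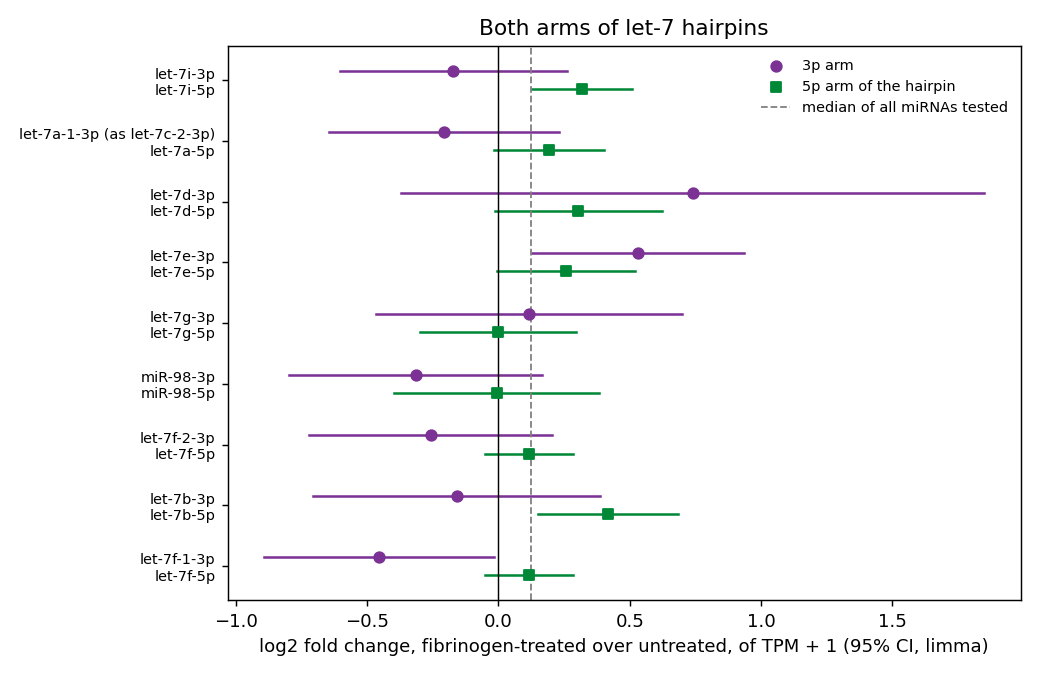
Log2 fold change of TPM + 1, fibrinogen-treated over untreated OPCs, of each distinct let-7 3p arm and the 5p arm of its hairpin, with 95% intervals from limma and a dashed line at the median of all miRNAs tested (let-7a-5p stands beside let-7a-1/c-2-3p). The intervals of the 3p arms reach across 0 for all but let-7e-3p and let-7f-1-3p, and with median-of-ratios and TMM scaling let-7g-3p and let-7f-5p move to just below 0.

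The share of the 3p arm in the reads of its hairpin differed widely among the let-7 family. As a median over the 6 libraries it was 2.34% for let-7d, 1.25% for miR-98, 0.744% for let-7i, 0.638% for let-7e, 0.213% for let-7a-1, 0.147% for let-7c-2, 0.130% for let-7g, 0.0321% for let-7b, 0.00736% for let-7f-2 and 0.00212% for let-7f-1. Over 187 hairpins with both arms measured the median was 23.6%, and 43 of them were under 1%, among them 8 of the 10 let-7 hairpins. Both arms had to reach 1 TPM in 3 or more libraries, so hairpins with a rarer arm were left out. A share under 1% could thus be seen mainly where the 5p arm was abundant. The 5p level of let-7a, let-7c and let-7f is shared by several hairpins, so the shares of let-7f-1 and let-7f-2 are lower limits, and for let-7a-1 and let-7c-2 the 3p level is shared as well. The hairpins Mirlet7d and Mirlet7f-1, which are neighbours, stood at the ends of this order, with 41.8 and 47884 reads of the 5p arm for each read of the 3p arm.

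In let-7d the share of the 3p arm was 2.24%, 2.44% and 3.50% in fibrinogen-treated OPCs, against 1.60%, 0.961% and 4.83% in untreated OPCs. Untreated library 3 had both the highest share and the lowest level of let-7d-5p. That arm had 2036, 2059 and 2236 TPM in fibrinogen-treated OPCs, against 1797, 1942 and 1424 TPM in untreated OPCs. In let-7i the share was 0.754%, 0.691% and 0.511% against 0.734%, 1.08% and 0.924%, and the groups overlapped.

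The ratio of the 3p to the 5p arm, apart from the pseudocount of 1 TPM, does not depend on the total of a library. The change of its log2, fibrinogen-treated minus untreated OPCs, was -0.57 for let-7f-1, -0.58 for let-7b, -0.55 for let-7c-2, -0.49 for let-7i, -0.40 for let-7a-1, -0.38 for let-7f-2, -0.31 for miR-98, 0.12 for let-7g, 0.27 for let-7e and 0.44 for let-7d. The changes of let-7f-1, let-7b, let-7c-2 and let-7i had an unadjusted p under 0.05 with limma, 4 of 10 hairpins, against 20.3% of the 187 pairs (8.02% with a lower ratio). The share of the 3p arm did not overlap between the groups for let-7b and let-7f-1, 2 of 10, against 29.4% of all pairs (12.3% lower). Both counts include let-7f-1, whose 3p arm passed the filter of 1 TPM through the untreated libraries, so its lower ratio is not independent of the filter. None of the 10 hairpins passed after adjustment, with adjusted p values of 0.199 to 0.819, against 1.07% of all pairs. The change was below 0 for 7 of 10 hairpins, against 45.5% of all pairs, whose median was 0.058. The 7 are not independent, as let-7a-1 and let-7c-2 share their 3p arm, and let-7f-1 and let-7f-2 share their 5p arm.

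**Figure D3:**
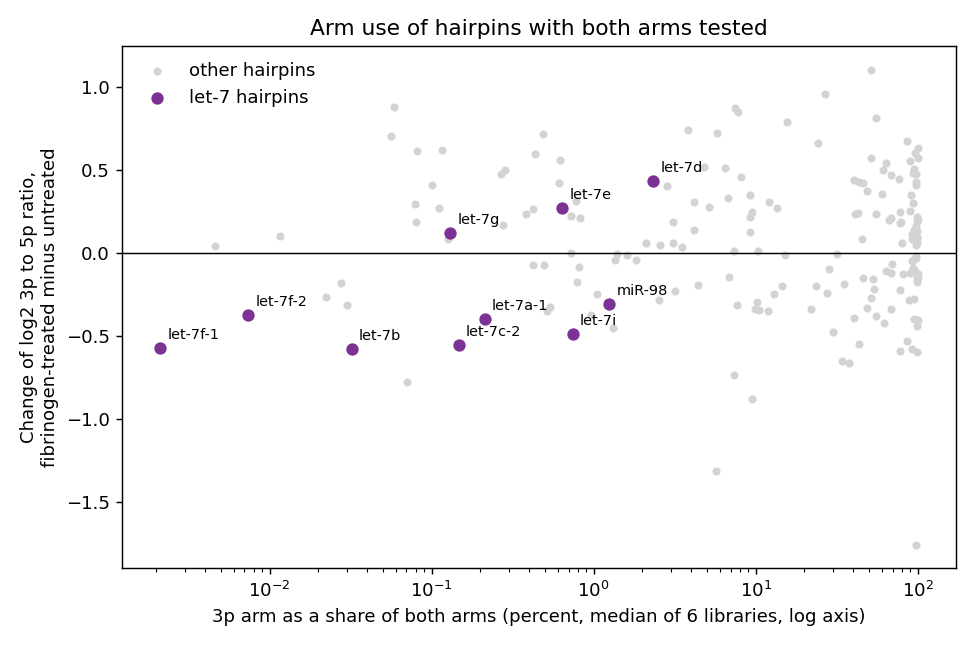
Change of the log2 ratio of the 3p to the 5p arm, fibrinogen-treated minus untreated OPCs, against the 3p arm as a share of both arms in percent (median of 6 libraries, log axis), with a point for each of 187 hairpins and the let-7 hairpins named. The let-7 hairpins run from 0.00212% for let-7f-1 at the left to 2.34% for let-7d, and 7 of the 10 lie below 0.

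The 3p arms of neighbouring hairpins were also compared with each other within libraries. On chromosome 13, the level of let-7d-3p was 48.2, 47.7 and 142 times that of let-7f-1-3p in fibrinogen-treated OPCs, against 16.8, 14.9 and 43.2 times in untreated OPCs. The treated libraries were above the untreated libraries, with an exact permutation p = 0.1, two-sided (adjusted p = 0.2 over 2 ratios). The reads of let-7f-1-3p were 13, 15 and 7 in fibrinogen-treated against 22, 15 and 25 in untreated OPCs. That arm passed the filter of 1 TPM through the untreated libraries, so this ratio in part repeats its lower treated values. In both groups library 3 had the highest ratio. On chromosome X, the level of miR-98-3p was 1.45, 1.62 and 1.64 times that of let-7f-2-3p in fibrinogen-treated OPCs, against 1.47, 1.61 and 1.75 times in untreated OPCs, with overlap (exact permutation p = 0.8, adjusted p = 0.8). These 2 ratios were chosen after the values had been seen.

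Over the 6 libraries the arms fell into patterns that are given as a description. The highest Pearson correlation of log2(TPM + 1) was 0.942 between let-7f-2-3p and miR-98-3p, followed by 0.921 between let-7a-1/c-2-3p and miR-98-3p and 0.852 between let-7a-1/c-2-3p and let-7i-3p. The arms let-7d-3p and let-7e-3p had 0.818 with each other. The lowest value was -0.72 between let-7e-3p and let-7f-1-3p, and let-7d-3p and let-7i-3p had -0.59. The 6 points of each correlation are shared libraries of both groups.

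**Figure D4:**
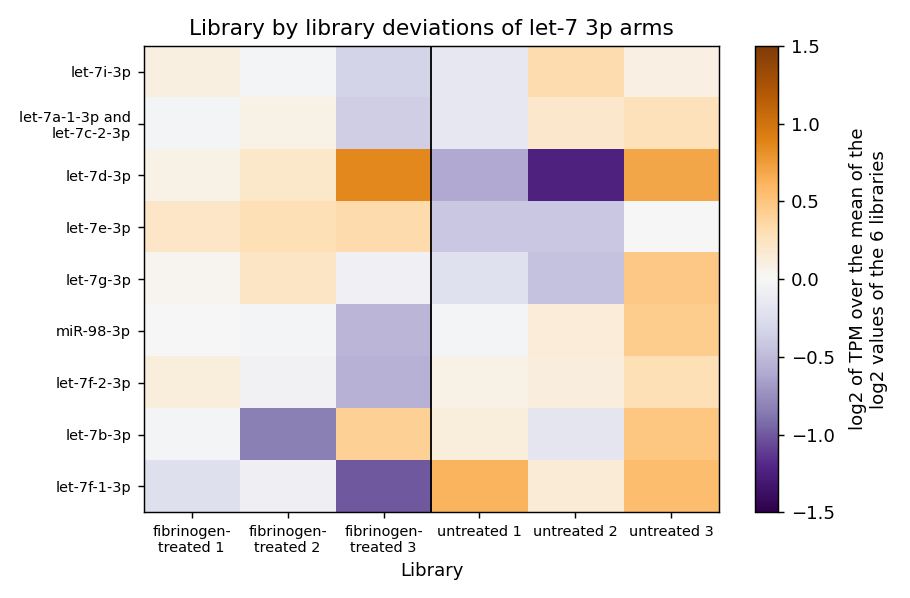
Deviation of each let-7 3p arm from the mean of its log2 TPM over the 6 libraries, with arms in rows and libraries in columns, fibrinogen-treated left of untreated, orange above and purple below the mean. The row of let-7d-3p has the widest range, from 18.8 TPM in untreated library 2 to 81.0 TPM in fibrinogen-treated library 3, and miR-98-3p and let-7f-2-3p show like patterns.

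Among 482 other known miRNAs, the 3 whose levels followed those of let-7i-3p most closely over the 6 libraries were miR-190a-5p (Pearson r = 0.988), miR-30c-5p (0.958) and miR-802-5p (0.937). Those nearest to let-7d-3p, looked up after its spread had been seen, were miR-331-3p (0.993), miR-504-5p (0.993) and miR-744-5p (0.990). All 3 were also highest in library 3 of each group. The highest of 482 correlations over 6 libraries is large in any case, and the values are a description.

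The base composition of a miRNA went with its fold change in these libraries. Over 443 of 514 known miRNAs tested (86.2%) that had a sequence, the Spearman correlation of the log2 fold change with the percent of G and C was 0.543, a value across miRNAs, which are not independent replicates. The let-7 3p arms held 31.8% (miR-98-3p) to 59.1% (let-7g-3p and let-7i-3p) G and C. With this trend removed, the log2 fold change was over 1.5 times smaller in size for miR-98-3p (-0.12), let-7a-1/c-2-3p (-0.11) and let-7e-3p (0.24), and over 1.5 times larger for let-7b-3p (-0.35) and let-7i-3p (-0.56). It was -0.27 for let-7g-3p, where it turned in sign, and moved less for let-7d-3p (0.55), let-7f-1-3p (-0.46) and let-7f-2-3p (-0.20). The part of base composition in the differences between groups was not tested further.

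The miRNAs encoded beside let-7 hairpins were described with the same fit. Of 10 tested members of the miR-99, miR-100 and miR-125 families, 0 passed the adjusted test with limma, 7 had an unadjusted p under 0.05 with higher values in fibrinogen-treated OPCs, against 20.1% of all miRNAs, and 8 had treated libraries all above untreated libraries, against 24.4%. Their median log2 fold change was 0.44. DESeq2, which called 27 of all miRNAs higher and 37 lower, called 2 of them, miR-99b-5p (log2 fold change 0.50, adjusted p = 0.0218) and miR-125b-1-3p (0.53, adjusted p = 0.0279). Beside let-7e-3p at 0.53, its neighbours had log2 fold changes of 0.66 for miR-99b-5p, 0.70 for miR-99b-3p, 0.66 for miR-125a-3p and 0.16 for miR-125a-5p. The level of miR-99b-5p was 457 ± 18.9 TPM in fibrinogen-treated and 292 ± 58.8 TPM in untreated OPCs (SD, n = 3 each; adjusted p = 0.0833). Of the other abundant members, miR-125b-5p averaged 41360 ± 5169 TPM in fibrinogen-treated and 31942 ± 7598 TPM in untreated OPCs, miR-125a-5p 3955 ± 336 and 3577 ± 702 TPM, and miR-99a-5p 1539 ± 104 and 1138 ± 152 TPM.

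The let-7 3p arms of the hairpins that stand beside those families, outside the 10, were low as well. The arm let-7c-1-3p had 11.5, 12.4 and 11.6 TPM in fibrinogen-treated OPCs, against 9.82, 10.4 and 11.2 TPM in untreated OPCs. The groups did not overlap, and its log2 fold change was 0.16 (limma, adjusted p = 0.521). The arm let-7a-2-3p had 1.27, 1.44 and 1.63 TPM against 0.871, 0.925 and 1.47 TPM, with a log2 fold change of 0.24 (adjusted p = 0.432) and of -0.0096 with the correction for base composition.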

How the data were processed

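Small RNA libraries of OPCs, 3 fibrinogen-treated and 3 untreated, were grouped by their labels. The authors filtered and trimmed reads (cutadapt 1.15), removed duplicates, mapped them with Bowtie 1.1.2 and counted miRNAs with miRDeep2. The study's methods name GRCm39 and the labels mm10. The deposited values, called TPM, are RPM: each is a whole multiple of 1 read's worth, and the authors divided reads by a library total. Values divided by the step were whole, to within 0.1, in 99.7% to 100% of cases.

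miRNAs that reached 1 TPM in 3 or more libraries entered a limma fit (version 3.58.1, R 4.3.3) of log2(TPM + 1) (eBayes with a trend, Benjamini-Hochberg adjustment, threshold 0.05). The ratio of arms was tested likewise over 187 hairpins. Means carry SDs, and single values had exact permutation tests. edgeR 4.0.16 and DESeq2 1.42.0 on the recovered reads, other scalings and filters, a base composition correction, a replicate block and leaving out each library were alternatives. The scripts were tested on simulated data. The named miRNAs were all let-7 3p arms, their 5p partners, the 4 most abundant neighbours, any neighbour called, markers and the 3 miRNAs most correlated with let-7i-3p. Others were named after their values were seen. The members and lists were chosen with earlier results of these data known.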

Additional observations from a re-analysis of the deposited data

How the results depend on the processing

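The count of let-7 3p arms called was 0 in all 17 alternatives, and that of arm ratios 0 in all 11. DESeq2 gave no adjusted p for let-7b-3p and let-7f-1-3p, which were left out of its count, and at a minimum of 10 TPM only 6 of the 10 arms were tested. Against 13 miRNAs called higher, there were 8 with no filter, 7 at a minimum of 10 TPM, 8 with the edgeR quasi-likelihood test, 27 with DESeq2 and 0 to 39 when a library was left out, 0, 1 and 1 without fibrinogen-treated libraries 1, 2 and 3, and 6, 4 and 39 without untreated libraries 1, 2 and 3. Against 4 lower, there was 1 among known miRNAs, and there were 10 with the edgeR exact test, 37 with DESeq2 and 0 to 6 without a library, with 0 without untreated library 1 or 2. Of the 5p arms and neighbours, 0 were called, 2 with DESeq2 and 0 to 1 without a library (miR-99b-5p without untreated library 3). The cause was not tested. The sign turned for let-7g-3p (-0.0040 with median-of-ratios, -0.023 with TMM, -0.059 and -0.061 with edgeR quasi-likelihood and exact tests, -0.061 with DESeq2, -0.27 with base composition, -0.059 to 0.36 without a library), let-7f-5p (-0.016, -0.038, -0.041, -0.041 and -0.038 in the first 5 of these), and, with base composition, let-7g-5p (0.093), miR-98-5p (0.18) and let-7a-2-3p (-0.0096). Leaving out a library gave -0.34 to -0.079 for let-7a-1/c-2-3p (-0.079 without fibrinogen-treated and -0.12 without untreated library 3, -0.34 without untreated library 1), -0.29 to -0.049 for let-7i-3p (-0.26 and -0.049 without fibrinogen-treated libraries 1 and 3, -0.29 and -0.052 without untreated libraries 1 and 2), -0.37 to -0.11 for let-7f-2-3p, -0.41 to -0.17 for miR-98-3p, -0.32 to 0.029 for let-7b-3p, -0.074 to 0.13 for let-7g-5p and -0.12 to 0.17 for miR-98-5p, and the change of the arm ratio ran from -0.074 to 1.09 for let-7d and from -0.19 to 0.44 for let-7g.

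With the replicate number as a block, 11 miRNAs were called higher, 4 lower and 0 let-7 3p arms, let-7d-3p having a log2 fold change of 0.74 with a standard error of 0.26 (adjusted p = 0.137), against 0.47 without the block, and a higher treated value in 3 of 3 same-numbered libraries. The numbers are given in the headers as mouse 1 to 3 in both groups, with nothing that says they are the same mice. Deviations of same-numbered libraries correlated at 0.0377, 0.233 and 0.124, and those of others at -0.20 to 0.0876, so not every pair was over 0.1 and the block was not used for the results above. Arms under 2 TPM rested on 7 to 32 reads a library, which limits their precision.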
